A study of Mus musculus with 4 samples.

Results

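The 10 genes followed here set the threshold for apoptosis in regulatory T (Treg) cells of visceral fat: the pro-survival genes Bcl2, Bcl2l1, Mcl1, Bcl2a1b and Bcl2a1d, the effector Bax, the BH3-only genes Bcl2l11, Bbc3 and Pmaip1, and the death receptor Fas. They were listed by symbol, with earlier results of these data known, and all 10 were found among the 32285 genes of both pools. Live CD3+ CD4+ Foxp3+ cells were sorted from visceral adipose tissue of male mice, labelled with hashtag antibodies and read by droplet 5′ single-cell RNA sequencing, in which each captured transcript carries a unique molecular identifier (UMI). In the Srebf2 pool, 25-week-old Foxp3YFP-cre Srebf2WT/WT mice (WT) were set against Foxp3YFP-cre Srebf2flox/flox mice (KO), with 4 mice per genotype. Both genotypes carry the Cre, which Foxp3 drives, so that Srebf2, a master regulator of cholesterol synthesis, is deleted in Foxp3-expressing cells of KO mice. In the diet pool, 23- to 27-week-old Foxp3thy1.1 PpargTdt reporter mice had eaten a normal chow diet (NCD) or a high-fat diet (HFD) for 22 weeks, with 5 mice per diet. The mice of a condition share 1 hashtag, so each condition is 1 pooled sample.

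BCL2 family proteins decide whether the outer mitochondrial membrane stays intact. The pro-survival proteins hold the effectors Bax and Bak1 in check, BH3-only proteins bind the pro-survival proteins and release that check, and freed effectors open the membrane to cytochrome c, which starts the caspases. Fas, bound by Fas ligand, starts caspases directly from the cell surface through Fadd and Casp8. In Treg cells, IL-2 receptor signalling through STAT5 and the pair Mcl1 and Bcl2l11 are known to bear on survival. Il1rl1 encodes ST2, the IL-33 receptor that marks the main Treg population of visceral fat.

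Bcl2a1b and Bcl2a1d are near-copies of 1 gene on chromosome 9, and the stretches upstream of their starts are shown because the copies limit what each count can mean. They are taken from RefSeq, build GRCm38.p6, 5′ to 3′ on each gene's own strand. Capitals mark bases that are not the same in the other copy. The Bcl2a1b stretch, chr9:89199023-89199228 on the plus strand, ends 44 bases before the annotated start, and the Bcl2a1d stretch, chr9:88731851-88732050 on the minus strand, ends at it.
Bcl2a1b: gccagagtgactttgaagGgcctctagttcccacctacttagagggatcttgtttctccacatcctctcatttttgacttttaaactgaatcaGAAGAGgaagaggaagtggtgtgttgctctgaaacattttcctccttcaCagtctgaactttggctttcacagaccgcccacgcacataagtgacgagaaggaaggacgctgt
Bcl2a1d: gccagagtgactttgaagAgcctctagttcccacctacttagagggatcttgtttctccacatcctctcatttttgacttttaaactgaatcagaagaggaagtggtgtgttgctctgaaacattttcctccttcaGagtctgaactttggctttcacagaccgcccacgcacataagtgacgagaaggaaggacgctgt
Only 8 of the 206 Bcl2a1b bases and 2 of the 200 Bcl2a1d bases are in capitals. Over the 256 aligned columns of the RefSeq promoter windows, 247 were identical (96.5%), with 3 mismatches and 6 gap columns. The first 50 transcribed bases of the third copy, Bcl2a1a, are identical to those of Bcl2a1d, 50 of 50. Reads of these 2 copies that start there cannot be told apart by those bases. Bcl2a1b and Bcl2a1d, with annotated starts offset by 44 bases, match at 14 of their first 50 transcribed bases. The transcripts were not compared further. How the counts divide between the copies is therefore uncertain, and the sum of the copies is given beside them. Bcl2a1a itself held 10 to 24 UMIs per condition.

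Matches to 15 motifs, searched on both strands of the 250 bases upstream of annotated starts, were listed for the 9 members with a RefSeq window; Pmaip1 is named only. The motifs shown were picked after their matches were seen, and a match is only a match of letters. The AP-1 letters TGANTCA occur in both Bcl2a1 stretches above, in the run reading tgaatca, and in 6.75% of all 32851 windows of that length. Bcl2l11, which encodes the BH3-only protein Bim, and Bbc3, which encodes Puma, both carry the FOXO letters TGTTTAC or their reverse complement, present in 3.17% of windows. Percentages are per window, and the 9 members have 14 windows. The Bbc3 match lies upstream of a start within the annotated gene, which begins at chr7:16308398. Fas carries the STAT letters TTCNNNGAA, present in 7.02% of windows. The stretches of Bcl2l11 and Fas are shown because both genes, like Bcl2, were called higher in HFD cells below. Bbc3 is shown beside them because it carries the same letters as Bcl2l11. Among the matches not shown, Fas also carries the AP-1 letters (TGAGTCA). Bcl2l1 carries the reverse complement of the NF-kB letters GGGANTTCC, present in 1.43% of windows. Capitals mark the matched letters. The Bcl2l11 stretch is chr2:128125788-128125842, the Bbc3 stretch chr7:16310069-16310125 and the Fas stretch chr19:34290541-34290599, all on the plus strand.
Bcl2l11: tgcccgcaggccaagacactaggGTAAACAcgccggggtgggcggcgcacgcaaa
Bbc3: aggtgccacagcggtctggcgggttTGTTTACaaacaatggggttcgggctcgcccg
Fas: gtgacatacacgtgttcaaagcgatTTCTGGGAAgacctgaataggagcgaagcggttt

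After filtering, 3490 WT, 3956 KO, 4938 NCD and 4512 HFD cells were kept, with 14010241 to 22200627 UMIs per condition and median depths of 3193.5 (HFD) to 3989 (NCD) UMIs per cell. Levels are UMIs per 1000000 summed UMIs (CPM, counts scaled to the condition's total), with exact Poisson intervals at 95% that cover counting error only. With 1 pool per condition, the spread between mice is not measured and no difference was tested; a gene is called higher or lower when its levels differ by at least 1.25-fold at a mean of 5 CPM or more. Srebf2 itself was at 65.7 in WT and 3.95 CPM in KO cells, in the direction of the labels. Cells with a Foxp3 UMI made up 55.4% of the WT and 56.7% of the KO pool, against 53.7% (NCD) and 40.5% (HFD) in the diet pool. In the kept cells the B cell list summed to 9.8 to 14.7 CPM, the myeloid list to 4.5 to 5.2 CPM and the CD8 and NK list to 17.9 to 22.7 CPM, with Cd79a, Lyz2 and Cd8a at 0 by the filter; in Il1rl1-zero NCD cells the CD8 and NK list reached 60.8 CPM. The adipocyte and stroma list (Adipoq, Pdgfra, Col1a1, Dcn) differed between conditions, at 3.07 (WT), 9.12 (KO), 1.40 (NCD) and 25.6 CPM (HFD), and it was highest in Il1rl1-zero cells of KO (24.3) and HFD (31.9 CPM). Its part in the results was not tested. The pools share 87 barcode sequences among the kept cells.

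An Il1rl1 UMI was present in 71.0% (WT) and 58.7% (KO) of cells in the Srebf2 pool and in 78.1% (NCD) and 17.6% (HFD) in the diet pool. In the cells left out for 3 or more Cd79a UMIs, a B cell gene, the share was 35.1%, 21.8%, 45.0% and 15%, at median depths of 6255.5, 6748, 7800 and 4455.5 UMIs. The HFD share was thus close to that in these B cells, which were deeper. The Il1rl1-positive HFD cells nevertheless held 638.9 CPM of Il1rl1, and 481 of the 793 had 2 or more Il1rl1 UMIs. A difference over all cells therefore adds 2 things that cannot be told apart in the sum: the mix of Il1rl1-positive and Il1rl1-zero cells, and the level within each. Every member is given for both strata below.

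**Figure D1:**
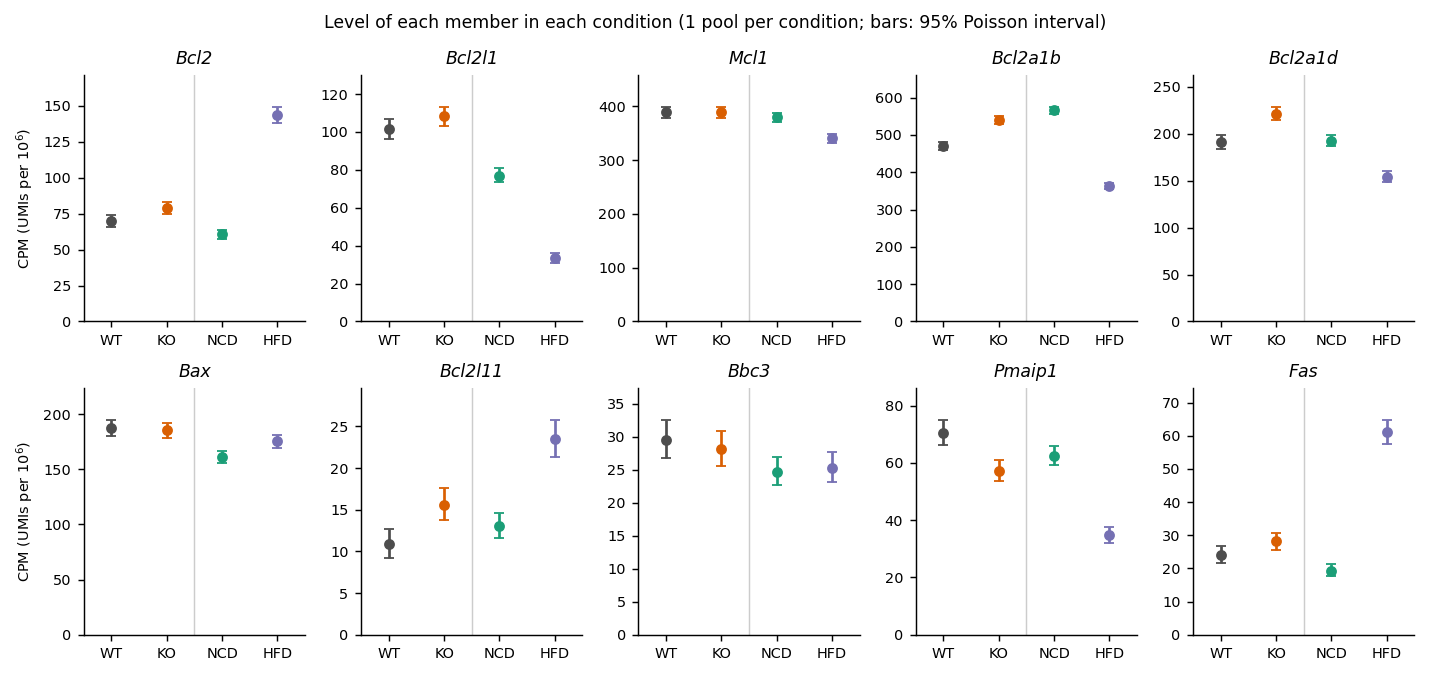
Level of each member in CPM (y axis starting at 0) in WT, KO, NCD and HFD cells, 1 pooled sample each, with 95% Poisson intervals as bars. HFD stands apart for Bcl2 and Fas (high) and for Bcl2l1 and Pmaip1 (low), and Mcl1, Bax and Bbc3 stay within a narrow range.

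Deletion of Srebf2 left most of these genes within the 1.25-fold rule. Among the 10 members, 1 was higher in KO than in WT cells (Bcl2l11) and 0 were lower, where 4.82% of the 9661 genes compared were higher and 4.40% lower. The median log2 ratio of the members was 0.13, against 0.00 over all genes.

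Among the pro-survival genes, Bcl2, the founder of the family, was at 69.7 in WT and 78.9 CPM in KO cells (log2 ratio 0.18, interval 0.06 to 0.30). Bcl2l1, which encodes Bcl-xL, was at 101.6 and 108.2 CPM (0.09, -0.01 to 0.19). Mcl1, a short-lived protein that Treg cells are known to need, was at 388.6 and 388.5 CPM. These 3 genes were thus nearly level between the genotypes. Bcl2a1b, a target of NF-kB, was at 470.7 in WT and 539.2 CPM in KO cells, and Bcl2a1d at 191.0 and 221.5 CPM. Both copies were slightly higher in KO cells, by 0.20 and 0.21, and their intervals (0.15 to 0.24 and 0.14 to 0.29) ended below the rule's 0.32. The summed Bcl2a1 copies stood at 662.8 and 761.3 CPM.

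The effector Bax was at 187.3 in WT and 185.3 CPM in KO cells. Bcl2l11, which encodes Bim, was at 10.8 CPM in WT (152 UMIs) and 15.6 CPM in KO cells (257 UMIs), a log2 ratio of 0.52 with an interval of 0.23 to 0.83. It was the member with the largest ratio, and the lower end of its interval lay below the rule. Bbc3, which encodes Puma, was at 29.5 and 28.2 CPM. Pmaip1, which encodes Noxa, the BH3-only partner of Mcl1, was at 70.4 in WT and 57.3 CPM in KO cells (-0.30, -0.43 to -0.17), just short of the rule. Fas was at 24.2 and 28.2 CPM (0.22, 0.01 to 0.43).

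Within Il1rl1-positive cells, 2 members were higher in KO, Bcl2l11 and Bcl2a1b, and 0 were lower, against 4.74% and 5.82% of all genes. Bcl2a1b was at 502.7 in WT and 635.2 CPM in KO cells there (0.34, 0.29 to 0.39), and Bcl2a1d at 205.4 and 256.5 CPM (0.32), on the edge of the rule. The Bcl2a1b call ended with at most 3 UMIs of a gene counted per cell (0.12) and among cells with a Foxp3 UMI (0.27), where Bcl2l11 was the member still called. It was also under the rule among cells without a UMI of Atf3, Egr1 or Fosb (0.19) and, narrowly, with the Il1rl1 split made after thinning. Bcl2l11 was at 8.44 in WT and 12.02 CPM in KO cells (0.51, 0.11 to 0.92). In Il1rl1-zero cells no member was called in either direction, while 9.95% of genes were higher and 9.26% lower. Bcl2a1b was level there, at 373.3 and 362.7 CPM, and Bcl2l11 was at 18.2 and 22.3 CPM (0.29, -0.15 to 0.75). A UMI of Atf3, Egr1 or Fosb, genes that respond within minutes to stimulation or to tissue dissociation, was present in 72.5% of WT and 62.9% of KO cells. Among cells without any of the 3, Bcl2a1b was level, at 356.1 in WT and 358.4 CPM in KO cells. The part of these response genes in the Bcl2a1b difference was not tested.

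High-fat diet went with larger differences. Of the 10 members, 3 were higher in HFD than in NCD cells (Fas, Bcl2 and Bcl2l11) and 4 were lower (Bcl2l1, Pmaip1, Bcl2a1b and, at the edge, Bcl2a1d), where 22.2% of the 9632 genes compared were higher and 15.1% lower. The median log2 ratio of the members was -0.06, against 0.08 over all genes. Mcl1, Bax and Bbc3 were not called. Marker lists differed between the diets as well. The list of the fat-resident ST2 Treg population (Il1rl1, Klrg1, Gata3, Pparg and Areg) summed to 5878 (NCD) and 1144 CPM (HFD), and the cycling list to 88.4 and 236.2 CPM. The dissociation and early response list summed to 14870 and 5497 CPM. These differences were present within the strata too: the ST2 Treg list summed to 6675 and 3655 CPM in Il1rl1-positive cells and to 1893 and 494.9 CPM in Il1rl1-zero cells. A split by Il1rl1 therefore does not set cells of the same marker levels side by side, and the part of these lists in the members' differences was not tested.

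**Figure D2:**
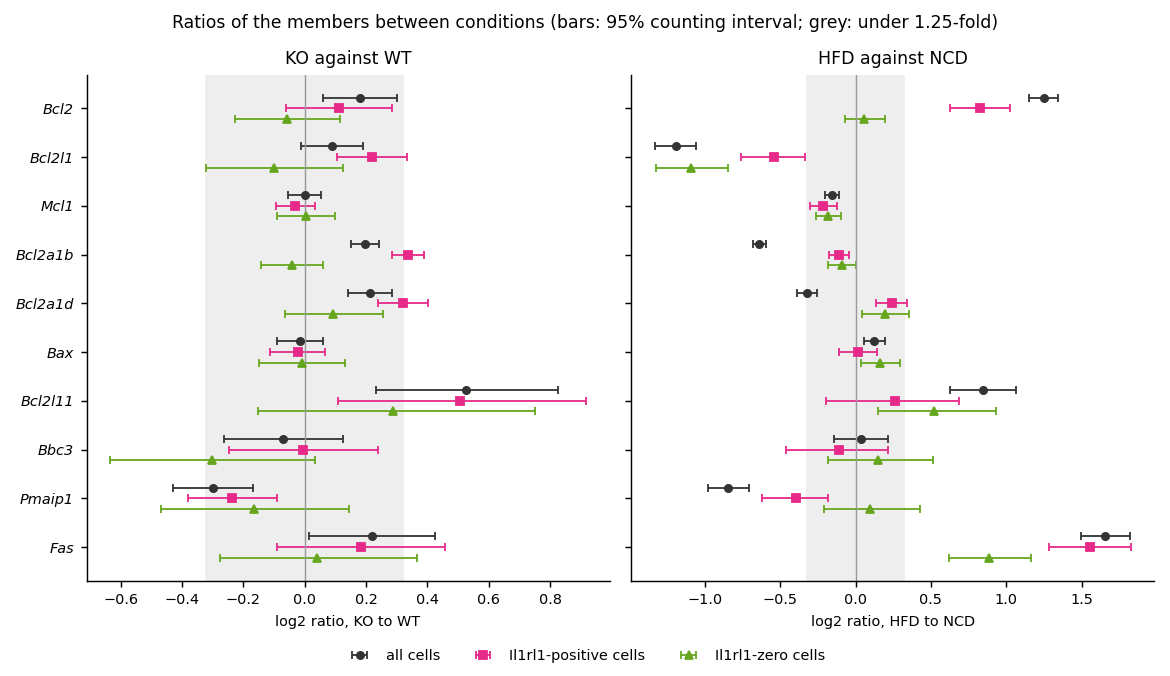
Log2 ratio of each member between KO and WT cells (left) and between HFD and NCD cells (right), over all cells and in Il1rl1-positive and Il1rl1-zero cells, with 95% counting intervals; the grey band marks ratios under 1.25-fold. In the diet pool Fas lies to the right and Bcl2l1 to the left in both strata, whereas Bcl2 lies to the right over all cells (1.25) and near 0 in Il1rl1-zero cells (0.06).

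The pro-survival genes went in opposite directions between the diets. Bcl2 was at 60.6 in NCD and 143.8 CPM in HFD cells, 2.37-fold higher (log2 1.25, 1.15 to 1.34). Bcl2l1 was at 77.0 in NCD and 33.7 CPM in HFD cells (-1.19, -1.33 to -1.06). The HFD pool held the highest Bcl2 and the lowest Bcl2l1 of the 4 conditions, with no overlap of intervals. Rankings over the 4 conditions span both pools, which differ in mice and library. Between WT and NCD cells 18.3% of genes were called, Bcl2l1 among them (101.6 against 77.0 CPM). As a share of the UMIs of this pair, Bcl2 made up 40.7% in WT, 42.2% in KO and 44.0% in NCD cells, but 81.0% in HFD cells (79.7% to 82.4%). This share needs no scaling to depth.

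By stratum the genes of this pair parted. In Il1rl1-positive cells Bcl2 was at 41.6 in NCD and 73.8 CPM in HFD (0.83, 0.62 to 1.02). In Il1rl1-zero cells it was at 155.4 and 161.9 CPM (0.06, -0.07 to 0.19), within counting error. That value depended on the split: with cells split after thinning to 2000 UMIs the Il1rl1-zero ratio was 0.54, and among cells with a Foxp3 UMI it was 0.38, both past the rule. It was -0.09 without Atf3, Egr1 or Fosb UMIs and 0.23 without UMIs of the cycling genes Mki67 or Top2a, both under the rule. Bcl2l1 was lower in HFD in both strata, at 80.5 and 55.1 CPM in Il1rl1-positive cells (-0.54, -0.76 to -0.34) and at 59.7 and 28.1 CPM in Il1rl1-zero cells (-1.09, -1.33 to -0.85). With both diets weighted to the same mix of strata, the log2 ratio was 0.27 for Bcl2, under the rule, and -0.74 for Bcl2l1. Among cells with 2 or more Il1rl1 UMIs the ratios were 0.57 (0.30 to 0.83) and -0.46 (-0.72 to -0.22).

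Mcl1 was at 379.4 in NCD and 340.2 CPM in HFD cells (-0.16, -0.20 to -0.11), with a similar ratio in both strata (-0.21 and -0.18). Bcl2a1b was at 565.6 in NCD and 363.3 CPM in HFD cells (-0.64, -0.68 to -0.60), and Bcl2a1d at 192.6 and 154.1 CPM (-0.32). Neither copy was called within the strata. Bcl2a1b was slightly lower in HFD, at 612.7 and 568.8 CPM in Il1rl1-positive cells (-0.11, -0.17 to -0.04) and at 329.8 and 310.1 CPM in Il1rl1-zero cells (-0.09), and Bcl2a1d was slightly higher, with ratios of 0.24 and 0.19. The sum of the copies went from 758.7 CPM in NCD to 518.6 CPM in HFD over all cells, and stood at 821.5 and 816.4 CPM in Il1rl1-positive cells.

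The early response genes moved with these values. A UMI of Atf3, Egr1 or Fosb was present in 63.7% of NCD and 25.9% of HFD cells. In every condition Bcl2a1b was higher in the cells with such a UMI than in those without, by 0.50 (WT), 0.80 (KO), 1.39 (NCD) and 0.72 (HFD) on the log2 scale. Cells with such a UMI were also deeper, for instance 4348 against 3401 median UMIs in NCD. Among cells without one, the direction between diets turned for both copies: Bcl2a1b was at 264.1 in NCD and 302.0 CPM in HFD (0.19, 0.11 to 0.28), and Bcl2a1d at 90.1 and 127.6 CPM (0.50, 0.37 to 0.64). The lower Bcl2a1 level in HFD cells thus held over all cells and not in this subset. Bcl2, by contrast, was lower in the cells with such a UMI in all 4 conditions (-1.06, -0.61, -1.18 and -0.62). Within Il1rl1-positive cells, Bcl2 was called lower with such a UMI in WT and NCD but not in KO and HFD. Bcl2a1b was called higher there in all 4 conditions. Among all cells without such a UMI, HFD cells still had more Bcl2 (0.69, 0.57 to 0.82) and less Bcl2l1 (-1.21, -1.42 to -0.996). By stratum, Bcl2 was called higher there only in Il1rl1-positive cells, and its ratio in Il1rl1-zero cells was -0.09. Bcl2l1 was called lower in both strata of this subset.

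**Figure D3:**
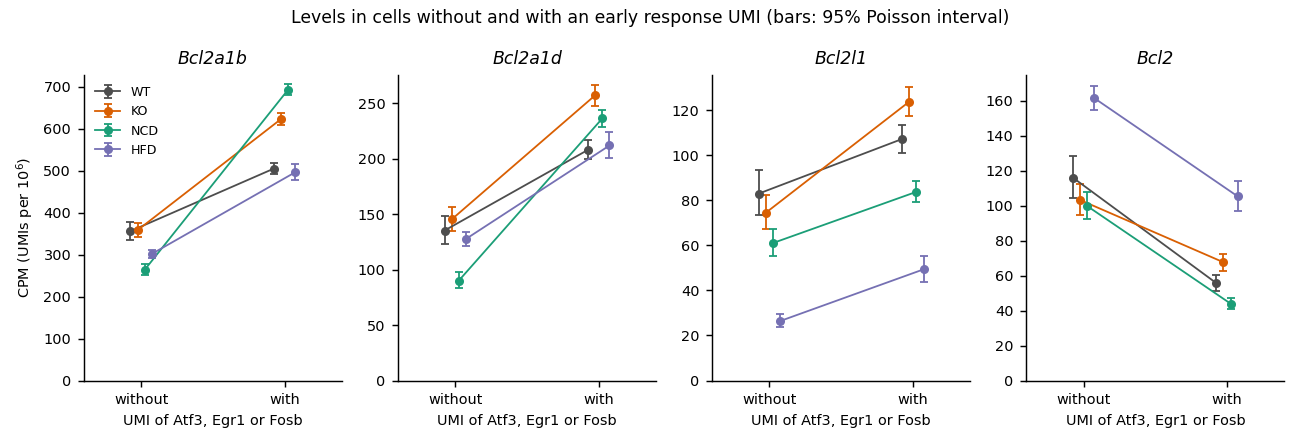
Levels of Bcl2a1b, Bcl2a1d, Bcl2l1 and Bcl2 (CPM, y axes starting at 0) in cells without and with a UMI of Atf3, Egr1 or Fosb, 1 line per condition, bars 95% Poisson intervals. The Bcl2a1 lines of NCD cells start lowest and run above those of HFD cells, from 264.1 to 693.6 CPM for Bcl2a1b, whereas every Bcl2 line runs down.

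Among the pro-death genes, Bax was at 160.9 in NCD and 175.3 CPM in HFD cells (0.12, 0.05 to 0.19). Bcl2l11 was at 13.1 CPM in NCD (290 UMIs) and 23.5 CPM in HFD cells (435 UMIs), a log2 ratio of 0.84 (0.63 to 1.06). HFD cells had the highest Bcl2l11 level of the 4 conditions. Bcl2l11 was at 17.8 and 25.8 CPM in Il1rl1-zero cells (0.52, 0.15 to 0.93) and at 12.1 and 14.4 CPM in Il1rl1-positive cells (0.26, -0.20 to 0.69), the latter within counting error. Bbc3 was at 24.7 and 25.3 CPM. Pmaip1 was at 62.4 in NCD and 34.8 CPM in HFD cells (-0.84, -0.98 to -0.71). In Il1rl1-positive cells it was at 69.3 and 52.5 CPM (-0.40, -0.62 to -0.18), and in Il1rl1-zero cells at 28.1 and 30.2 CPM, where the intervals overlap. The direction in Il1rl1-positive cells turned to 0.14 after thinning to 2000 UMIs, with the Il1rl1 split also made on the thinned counts. No interval was computed for that value. In Il1rl1-positive cells split before thinning, a Pmaip1 UMI was found after thinning in 10.5% of 3736 NCD and 10.4% of 732 HFD cells. The call also ended in cells with 2 or more Il1rl1 UMIs (-0.27). The BH3-only members thus included 1 that was higher in HFD, 1 that was lower and 1 that was level.

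Fas had the largest ratio between the diets of any member. It was at 24.2 CPM in WT, 28.2 CPM in KO, 19.4 CPM in NCD (430 UMIs) and 61.1 CPM in HFD cells (1133 UMIs), 3.15-fold higher in HFD than in NCD (log2 1.66, 1.496 to 1.82). It was higher in HFD in both strata, at 16.3 and 47.8 CPM in Il1rl1-positive cells (1.56, 1.28 to 1.82) and at 34.9 and 64.5 CPM in Il1rl1-zero cells (0.88, 0.62 to 1.17). With the strata weighted alike, the ratio was 1.14. Among cells without an early response UMI it was 1.36 (1.12 to 1.62). The 10 cells with the most Fas UMIs held 7.21% of the Fas UMIs in NCD and 4.77% in HFD, so the difference did not rest on a few cells. After each cell was thinned to 2000 UMIs, a Fas UMI was found in 3.78% of 4652 NCD and 10.9% of 3801 HFD cells (7.59% and 18.9% unthinned), which left out 286 and 711 shallower cells. For Bcl2 these thinned shares were 9.18% and 21.1% (17.3% and 30.7% unthinned). No cell type that should lack these genes was set beside these shares.

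Counted by stratum, 2 members were higher and 2 lower in HFD among Il1rl1-positive cells (Bcl2 and Fas, against Bcl2l1 and Pmaip1), where 22.4% of genes were higher and 13.8% lower. Among Il1rl1-zero cells 2 were higher (Fas and Bcl2l11) and 1 lower (Bcl2l1), where 13.6% of genes were higher and 17.9% lower. Only Fas and Bcl2l1 were called in the same direction in both strata and over all cells.

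Split by Il1rl1, the members sorted into 2 sets that were alike in all 4 conditions. Bcl2l1, Bcl2a1b, Bcl2a1d and Pmaip1 were higher in Il1rl1-positive than in Il1rl1-zero cells of every condition (4 of 10 members, against 4.22% of 9089 genes), and Bcl2, Bcl2l11 and Fas were lower in every condition (3 of 10, against 4.03%). The pools are separate libraries, but the cells of a condition are not replicates and no test was made. Mcl1 and Bax were within the rule in all 4, and Bbc3 was lower in WT cells only (-0.51).

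**Figure D4:**
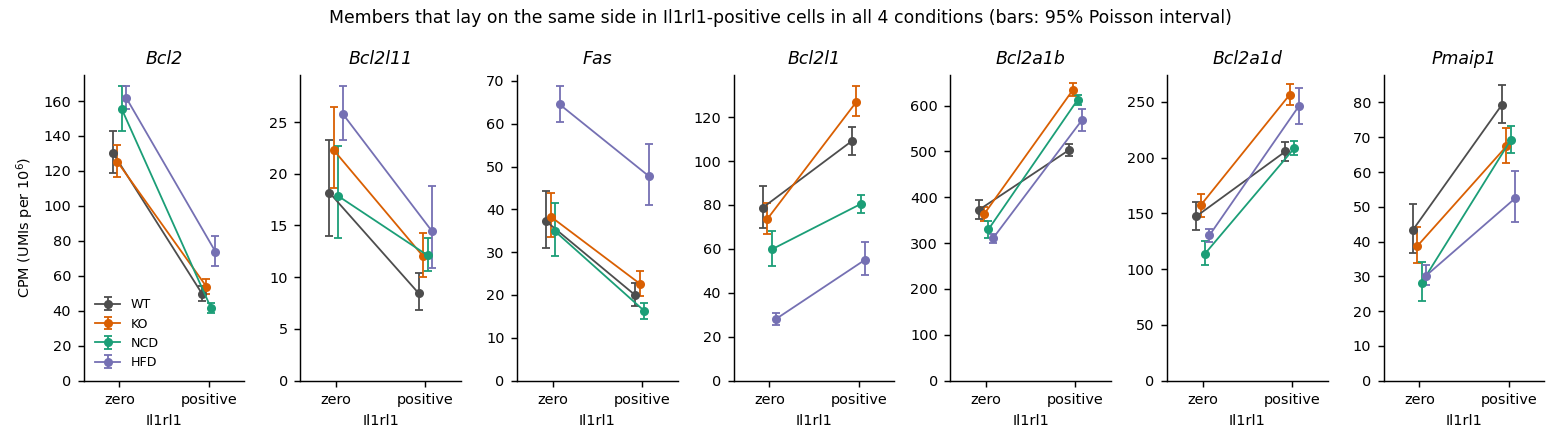
Levels (CPM, y axes starting at 0) in Il1rl1-zero and Il1rl1-positive cells of the 7 members that lay on the same side in all 4 conditions, 1 line per condition, bars 95% Poisson intervals. Lines of Bcl2, Bcl2l11 and Fas run down and those of Bcl2l1, Bcl2a1b, Bcl2a1d and Pmaip1 run up; the HFD line lies highest for Fas and lowest for Bcl2l1.

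Bcl2 was at 130.4, 125.3, 155.4 and 161.9 CPM in Il1rl1-zero cells of WT, KO, NCD and HFD, and at 49.7, 53.7, 41.6 and 73.8 CPM in Il1rl1-positive cells. The log2 ratios ran from -1.90 in NCD to -1.13 in HFD, and no interval of one stratum reached that of the other. By the number of Il1rl1 UMIs (0, 1, 2 to 3, and 4 or more), Bcl2 was at 155.4, 55.6, 38.6 and 40.2 CPM in NCD cells, and at 161.9, 101.1, 59.0 and 58.7 CPM in HFD cells. After thinning to 2000 UMIs the highest bin was not low in the Srebf2 pool: the levels were 106.4, 57.0, 44.1 and 100.7 CPM in WT and 114.5, 64.5, 54.9 and 93.75 CPM in KO cells. Bcl2l1 ran the other way, at 78.8, 73.5, 59.7 and 28.1 CPM in Il1rl1-zero cells and 109.2, 127.0, 80.5 and 55.1 CPM in Il1rl1-positive cells. Bcl2 therefore made up 62.3%, 63.0%, 72.2% and 85.2% of the UMIs of this pair in Il1rl1-zero cells, and 31.3%, 29.7%, 34.1% and 57.2% in Il1rl1-positive cells. Only in HFD did Bcl2 UMIs outnumber Bcl2l1 UMIs in the Il1rl1-positive stratum.

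Pmaip1 was at 43.3, 38.7, 28.1 and 30.2 CPM in Il1rl1-zero cells of WT, KO, NCD and HFD, and at 79.4, 67.4, 69.3 and 52.5 CPM in Il1rl1-positive cells. Its ratio was largest in NCD (1.30, 1.01 to 1.60). Bcl2a1b was at 373.3, 362.7, 329.8 and 310.1 CPM, and at 502.7, 635.2, 612.7 and 568.8 CPM. Fas was at 37.2, 38.3, 34.9 and 64.5 CPM in Il1rl1-zero cells, and at 19.9, 22.6, 16.3 and 47.8 CPM in Il1rl1-positive cells. Fas in Il1rl1-positive HFD cells was thus above Fas in Il1rl1-zero cells of the other 3 conditions, though its interval (41.1 to 55.2) overlapped theirs for WT, KO and NCD. After thinning to 2000 UMIs, Fas by the same Il1rl1 UMI bins was at 30.1, 17.5, 13.6 and 61.1 CPM in WT cells. The highest WT bin (37 Fas UMIs) thus lay above the 0 bin. In KO cells that bin (32.9 CPM) was near the 0 bin (34.1 CPM), and in NCD and HFD cells it was the lowest (11.1 and 13.7 CPM). These 2 values rested on 13 and 2 Fas UMIs. Their intervals (5.9 to 19.0 and 1.66 to 49.5 CPM) held the level of the bin of 2 to 3 Il1rl1 UMIs. Among cells without a UMI of Atf3, Egr1 or Fosb, all 7 genes lay on the same side of 0 in all 4 conditions, for example Bcl2 at -0.92, -1.03, -1.76 and -1.09. There Bcl2a1b in NCD (0.32) was just short of the rule, and the interval of Fas in WT cells (-1.15 to 0.06) held 0. Il1rl1-positive cells were deeper, with medians of 3772 to 4221 UMIs against 3046 to 3166, and with the split made after thinning to 2000 UMIs the 7 genes kept their side in all 4 conditions, with Bcl2 at -0.89, -0.81, -1.41 and -1.17 and Bcl2l1 in NCD (0.28) under the rule.

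Genes whose levels over the 8 strata (4 conditions by Il1rl1) ran most like a member were looked up among 6279 genes at a mean of 20 CPM or more, as a description without a test, since strata share libraries and conditions. Bcl2 ran most like Pnrc2, Wdr82 and Cbr1 (Pearson r of log2 levels 0.99 for each). This r does not weigh the size of a change. Bcl2 spanned 41.6 to 161.9 CPM, and the 3 genes spanned 32.9 to 48.1, 48.3 to 74.6 and 34.6 to 46.5 CPM. Bcl2l1 ran most like Vps26a, Pparg and Mvb12b (0.99, 0.99 and 0.99), Pparg being the transcription factor that defines visceral fat Treg cells. Bcl2l11 ran most like Itga6, S1pr1 and Nfatc1 (0.98, 0.97 and 0.97), S1pr1 being the receptor for exit from lymphoid organs. Fas ran most like Izumo1r, Trp53inp1 and Ctss (1.00, 1.00 and 0.99).

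The other genes of the pathway were followed through 7 lists with 71 different genes, counted over all cells and read against the same background shares. In KO cells 1 of 6 BH3-only genes compared was higher (Bcl2l11) and 0 were lower, where 4.82% of all genes were higher and 4.40% lower. Of 12 death receptor genes, ligands and adaptors, 2 were higher, Fasl (0.61, 11.6 against 7.57 CPM) and the TNF receptor Tnfrsf1a (0.44), and 0 were lower. Neither was called within a stratum. In Il1rl1-positive cells 0 of 11 genes compared were higher, with Fasl under the limit of 5 CPM. In Il1rl1-zero cells 0 of 12 were higher and 1, Tnf, was lower. None of the 11 p53 genes was called in KO cells. Of the 12 FOXO, STAT5 and IL-2 receptor genes 2 were higher, Stat5a (0.70, 34.7 against 21.3 CPM) and Stat5b (0.61, 98.7 against 64.7 CPM), and 0 lower. Both transduce IL-2 receptor signals. Stat5a and Stat5b were higher in KO cells in both strata, by 0.56 and 0.62 in Il1rl1-positive and by 0.70 and 0.35 in Il1rl1-zero cells.

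Between diets more of these genes were called, where 22.2% of all genes were higher and 15.1% lower. The effector Bak1 was at 31.7 in NCD and 39.2 CPM in HFD cells (0.31), just under the rule. Of 6 BH3-only genes, 2 were higher in HFD, Bcl2l11 and Bid (0.83), the protein that Casp8 cleaves, and 3 were lower, Bik (-1.64), Pmaip1 and Bad (-0.39). Of 12 death receptor genes, 3 were higher, Fas, Fasl (1.03) and Tnfrsf1a (0.92), and 4 lower, among them Tnf (-1.03) and Tnfrsf10b, the mouse TRAIL receptor (-0.97). Fasl took opposite directions in the strata, 1.57 in Il1rl1-positive and -0.74 in Il1rl1-zero cells, a difference that was not tested.

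Among genes of the apoptosome and the inhibitors of apoptosis, Birc2, an inhibitor of apoptosis, was at 69.7 in NCD and 102.8 CPM in HFD cells (0.56), and Diablo at 26.9 and 35.6 CPM (0.40). Of 10 p53 genes, 3 were higher, led by Trp53inp1 (1.00), and 2 lower, Cdkn1a (-1.66) and Tnfrsf10b. Of the 12 FOXO, STAT5 and IL-2 receptor genes, 5 were higher and 3 lower. Il2ra, the high-affinity IL-2 receptor chain, was at 655.7 in NCD and 193.1 CPM in HFD cells (-1.76), while Stat5b was at 69.5 and 206.4 CPM (1.57), Stat5a at 23.1 and 57.0 CPM (1.30) and Pik3ip1 at 19.999 and 43.2 CPM (1.11). Il2ra was lower in HFD in both strata (-1.01 and -1.03), and Stat5a and Stat5b were higher in both. These are transcript levels; no protein or cell death was measured in these files.

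**Figure D5:**
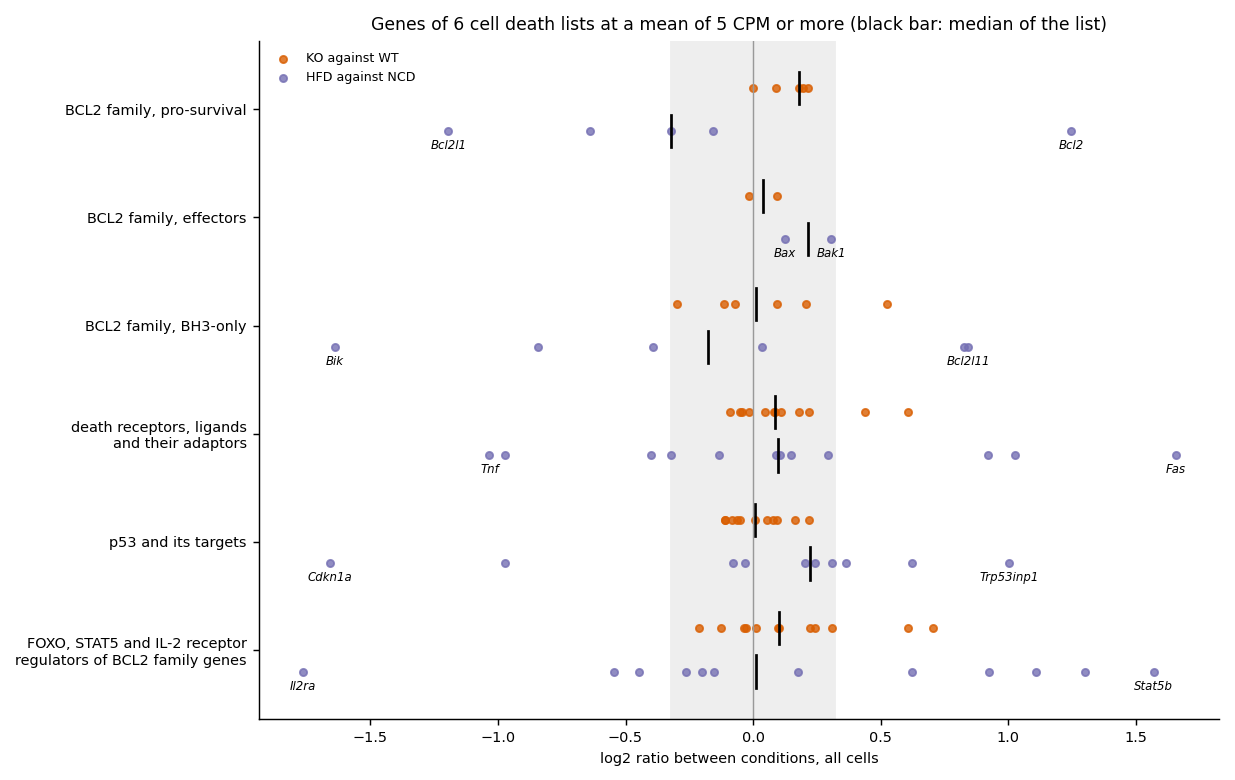
Log2 ratio over all cells of each gene at a mean of 5 CPM or more in 6 of the 7 cell death lists, KO against WT and HFD against NCD, with the list's median as a black bar, the grey band marking ratios under 1.25-fold, and the lowest and highest diet ratio of each list named. The KO ratios cluster near 0, and the diet ratios spread from -1.76 (Il2ra) to 1.66 (Fas).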

How the data were processed

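The 4 conditions were analysed from 2 pools, each with a gene expression and a hashtag library. The deposited matrices hold unnormalised UMI counts, hashtags included, which the authors made with Cell Ranger, per the file headers. Its version was 7.1.0 (Srebf2 pool) or 7.0.1 (diet pool) in those headers and 7.0.1 in the submitters' processing notes. Cells were kept with 500 or more genes, a mitochondrial share under 10%, 90% or more of hashtag counts from 1 hashtag, and no Cd79a, Lyz2 or Cd8a UMI, which left 7446 of 9036 and 9450 of 11456 barcodes. Droplets with a mixed hashtag signal were removed this way; pairs of cells of 1 condition remain. Counts were summed per condition and scaled to CPM. Log2 ratios used a pseudocount of 0.5 counts, with exact binomial intervals at 95%. No replicate check was possible and no p-value was computed. The members and lists were chosen with earlier results of these data known. Genes named were all members, Srebf2, Il1rl1 and Foxp3 as checks, up to 4 genes per list and comparison farthest from equal levels at a mean of 5 CPM or more, and the 3 genes most like Bcl2, Bcl2l1, Bcl2l11 and Fas at 20 CPM or more. Alternatives changed the cell filters, scaling, pseudocount, depth, size rule and Il1rl1 split. The Bcl2 share, the recomputation within Il1rl1 strata, the Il1rl1 UMI bins, the Bcl2a1 sum and the limit of 2 or more Il1rl1 UMIs were chosen after seeing the data. The summing and ratio steps were tested on simulated data. Tools were numpy 2.4.6, pandas 2.3.3, scipy 1.17.1, matplotlib 3.10.9 and biopython 1.88. Some genes of the lists are not reported here.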

Additional observations from a re-analysis of the deposited data

Results flagged for a closer look

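In 2 cases a member took opposite directions in Il1rl1-positive and Il1rl1-zero cells under the same comparison and passed the 1.25-fold rule in at least 1 of them. Bcl2a1b was higher in KO than in WT cells among Il1rl1-positive cells (log2 ratio 0.34) and level among Il1rl1-zero cells (-0.04), a difference of 0.38. The call in Il1rl1-positive cells ended with at most 3 UMIs of a gene per cell (0.12) and among cells with a Foxp3 UMI (0.27). Pmaip1 was lower in HFD than in NCD cells among Il1rl1-positive cells (-0.40) and slightly above it among Il1rl1-zero cells (0.10), a difference of -0.50. The direction in Il1rl1-positive cells turned to 0.14 after thinning to 2000 UMIs. Neither difference was tested, since each condition is 1 pool.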

How the results depend on the processing

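Of 1408 recomputed log2 ratios of single members, 1253 stayed within the counting interval of the main value, 151 moved outside it and 4 turned. A turn was counted only for ratios called in the main setting, so other changes of sign fall among the 1253 and 151. For example, Bcl2a1b in HFD against NCD among Il1rl1-positive cells ran from -0.18 to 0.75. Dropping the 5 CPM limit or setting 1.5-fold changes only the calls, so those ratios stayed by construction. So did ratios within Il1rl1-zero cells under the limit of 2 or more Il1rl1 UMIs. With cells free of Atf3, Egr1 and Fosb UMIs, HFD against NCD turned to 0.19 for Bcl2a1b and 0.50 for Bcl2a1d. The members lower in HFD then numbered 2, and 5 were called in Il1rl1-zero cells, where 34.4% of all genes were called. For the settings that follow, the share of all genes called was not computed. With Il1rl1 strata weighted alike, Bcl2a1d was at 0.22 and 1 member was lower in HFD. With thinning to 2000 UMIs, Pmaip1 in HFD against NCD among Il1rl1-positive cells turned from -0.40 to 0.14, 1 member was lower in KO, and 3 (KO) and 5 (HFD) were called in Il1rl1-zero cells. With only the Il1rl1 split thinned these counts were 2 and 6. Among cells with a Foxp3 UMI, 2 members were higher in KO, with 1 called in Il1rl1-positive and 2 in Il1rl1-zero KO cells, and 5 in Il1rl1-zero HFD cells. Without Mki67 or Top2a UMIs, 1 member was lower in KO and 1 was called in Il1rl1-zero KO cells, as was 1 with 1000 or more genes per cell. With at most 3 UMIs of a gene per cell, 1 was lower in KO and 1 was called in Il1rl1-positive KO cells. At 1.5-fold, 0 were higher in KO, 0 were called in Il1rl1-positive KO and 2 in Il1rl1-positive HFD cells, and by Il1rl1 in all 4 conditions 1 was higher and 1 lower.

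The Bcl2 share of Bcl2 and Bcl2l1 UMIs in WT, KO, NCD and HFD was 35.6%, 36.6%, 38.4% and 78.8% among cells with a Foxp3 UMI, and 58.3%, 58.1%, 62.0% and 85.9% without early response UMIs. It was 43.8% in WT and 46.2% in KO after thinning, 42.7% in WT and 48.6% in NCD with no marker filter, 38.6%, 42.0% and 79.2% in WT, NCD and HFD with the cap of 3 UMIs, and 83.0% in HFD without cycling cells. The cause of these shifts was not tested. Fas and Bcl2l1 kept their direction between diets in all 16 alternatives (1.14 to 1.71 and -1.27 to -0.74), and Bcl2l11 in KO ran from 0.33 to 0.59. The 16 include the dropped 5 CPM limit and the 1.5-fold rule, which cannot change a ratio. Bcl2l11 rested on 55 to 435 UMIs per condition or stratum. No paired analysis was possible because each condition is 1 pool.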
